A study of Bos taurus with 2 samples.

Results

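The bovine array held 9136 probes that its design gave no gene name, out of 43653 distinct probes that were not controls. They were all probes in the 2 scanner files with a control type of false and an empty gene name field. The other 34517 probes carried a gene name and served as the comparison. Most of the unnamed probes were not blank: only 864 had no database hit and 1536 had no description, while a further 457 had the 2 letters GB as their whole description. For the rest the hit and description columns gave a cDNA clone, a predicted transcript or a likely protein, and those columns are used below to say what the detected probes were.

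The study set 2 whole blood samples of Holstein cattle (Bos taurus) side by side: 1 array held total RNA of a low feed efficiency sample and 1 that of a high feed efficiency sample. Feed efficiency is the inverse of residual feed intake, the feed eaten beyond what an animal's size and production call for, so the low efficiency array is that of high residual feed intake. Neither treatment, age nor sex is given in the labels, nor how many animals gave blood for a sample. With 1 array per group there are no replicates: no difference below could be tested, and the number of arrays limits the precision of each.

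Long oligonucleotide probes report whatever labelled RNA pairs with them, whether or not a gene model exists at that place. An array design therefore holds probes built on expressed sequence tags (single reads from the end of a cDNA clone), on assembled tag clusters and on predicted transcripts, next to probes for named genes. Blood RNA is dominated by a few abundant kinds: ribosomal and mitochondrial RNA, globin in red cells, granule proteins in neutrophils, and antigen receptors and histocompatibility genes in lymphocytes and monocytes. The sequences of the probes were in none of the files used here, so each probe is given by its array identifier and by what its description says.

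Each array had 45220 spots, of which 43803 were probe spots and 153 were negative controls. Signal means the background-subtracted pixel median of a spot, in scanner units. To be above background it had to pass 10.9 on either array, which is the negative control median plus 3 robust SDs. The check of the tissue label used probes with a gene name: all 24 of 24 blood cell markers on the array were above background on both arrays, from red cell, neutrophil, T cell, B cell, natural killer, monocyte and platelet lists, and the lowest reading was 94. Of 5 markers of other tissues, ALB, KRT5 and GFAP were at background and INS and MYH7 reached at most 77. Readings are printed before any scaling. Differences are given as log2 of low minus high feed efficiency after each array was divided by its 75th percentile, 98 in low and 81 in high feed efficiency. Over spots of one probe, the SD of this difference was 0.16 for 17 brighter probes and 0.23 for 19 dimmer ones, all of them probes with a gene name. No probe without a gene name was spotted more than once, so none has an error of its own.

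Fewer of the probes without a gene name lit up than of the probes with one. Of the 9029 that remained after 107 with an unusable spot were left out, 4121 (45.6%) were above background in low and 3797 (42.1%) in high feed efficiency, against 59.3% and 55.5% of probes with a gene name. The shares over all probes were 56.5% and 52.7%. On both arrays 3627 members were above background, which is 40.2% of them, where 51.0% of all probes were. Their median signal there was 69 in low and 57 in high feed efficiency, against 100 and 82 for probes with a gene name. At the top of the range, 52 members and 360 named probes read over 10000 scanner units on both arrays.

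Where a probe's hit came from went with how often it was detected. Members whose first hit was a cluster of a gene index, an assembly of expressed sequence tags, were above background in 53.8% and 49.8% of 4364 probes in low and high feed efficiency. Those placed on an Ensembl transcript reached 35.7% and 31.8% of 1875, those on a GenBank entry 41.3% and 38.7% of 1934, and the 854 usable probes with no hit at all 35.7% and 32.7%. Named probes placed on Ensembl transcripts were detected at 41.5% and 37.0%, so the low share on Ensembl models was not limited to unnamed probes. The 264 probes without any hit that were above background on both arrays had median signals of 97.5 and 78, above the 69 and 57 of all such members. Of the probes without a hit, 42 read over 1000 on both arrays and 12 over 10000. The brightest were A_73_P494338 at 34305 (low) and 27829 (high feed efficiency) and A_73_P494988 at 34258 and 27163. The annotation columns give neither a hit nor a description for them.

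Members described as an expressed sequence tag split by the end of the clone, where the description stated it. For 658 of them no end was stated, and 45.3% and 42.6% of these were above background in low and high feed efficiency. Of 459 members on 3′ tags, 17.6% were above background in low and 15.3% in high feed efficiency. Of 574 on 5′ tags, 50.5% and 47.0% were. The same order appeared, with a smaller gap, in the probes with a gene name: 33.7% and 24.2% of 95 on 3′ tags against 43.6% and 39.3% of 117 on 5′ tags. The 2 kinds of member also differed in their support. For 402 of the 459 members on 3′ tags the tag was the only accession listed, and 14.7% of these were above background in low feed efficiency. Of the 57 members on 3′ tags with further accessions, 38.6% were. Of the 85 members on a lone 5′ tag, 24.7% were, while 55.0% of the 489 with further accessions were. Unnamed tag probes with further accessions were thus detected more often at either end, and the part of this in the gap between the ends was not tested. Named 5′ tag probes went the other way, with 54.2% of 24 on a lone tag against 40.9% of 93 with further accessions. Blood libraries did not lead among the tissues that descriptions name: 69.7% of 99 probes from fat libraries and 58.9% of 124 from brain libraries were above background in low feed efficiency, against 46.9% of 32 from lymphoid or blood libraries.

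Many gene index clusters were described through a protein of some species that covered part of them. Of 3338 such members, 888 named a cattle protein, 1573 a protein of another mammal and 736 a protein of some other organism or virus, spread over 338 names, with rice (51), zebrafish (36) and fruit fly (27) among the most frequent. A distant species in the description did not mark a dark probe. Members named after organisms other than mammals were above background in 63.0% in low and 59.0% in high feed efficiency, against 55.2% and 50.3% for those named after a cattle protein. The median share of the protein covered was 6% in the first set and 46.5% in the second, and 587 of the 736 covered 10% or less. The brightest example was A_73_116293, which is described through a fruit fly protein and read 35579 (low) and 37597 (high). Descriptions of this kind are used below only as labels.

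A match of RefSeq accessions and locus numbers to a current bovine gene table of the ARS-UCD2.0 assembly placed 795 of the 9136 probes on a gene that is known today. Of these, 789 fell on 1 gene, and 694 of these have a symbol other than a locus number. The linker histone probe A_73_107578, for example, falls on H1-10, and the probe described as C7orf43 falls on TRAPPC14, a subunit of a vesicle tethering complex. The match did not use probe sequences and can differ from the description. A_73_114961, described as 40S ribosomal protein S6, falls on UPF1. A further lead to a name is a shared accession: 1008 members list an accession that a named probe lists too, 975 of them with 1 gene name only. Such a lead does not settle what a probe reads. A_73_P097576, described as mitochondrial COX1, read 31018 and 24679 and shares an accession with a BCAS3 probe that read 25 and 20. In 388 of the 1008 both the member and its named partner were above background on both arrays. Across these 388 pairs Pearson's r of the log2 differences was 0.29 and Spearman's rho 0.40. Across the 231 with the brighter members they were 0.30 and 0.47. The pairs lie on the same 2 arrays, some share a partner, and probe pairs are not independent replicates. Member and partner differed by a median of 0.19, and by 0.14 for the brighter members. They lay on the same side of the median of all probes in 66.5% of the 388 pairs.

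By their descriptions, the 10 brightest members included cytosolic and mitochondrial ribosomal RNA, a histone and beta-2-microglobulin. The others were described as an uncharacterized protein, a cDNA clone and part of a fruit fly protein. The top reading was that of A_73_P106806, described as 18S ribosomal RNA of the small cytosolic subunit, with 56447 on the low-efficiency and 55931 on the high-efficiency array, a log2 difference of -0.26. Its accession is listed also for 3 probes that the array names ITPR1, and these gave -0.28 to -0.35. Next came A_73_107578 (histone H1x, a linker histone that binds DNA between nucleosomes) at 48697 and 47585 (-0.24), with a pixel variation of 52% in its high-efficiency spot. The named H1FX probe that shares its accession read 54 and 53, with a difference of -0.25. A_73_P068886, listed as an uncharacterized protein, read 49814 and 45883 (-0.16). It shares its accession with a probe for RPL35, a protein of the large ribosomal subunit, which gave 0.07. A_73_P080801 reports B2M (beta-2-microglobulin, the light chain of class I histocompatibility molecules) and read 39071 and 35129, a difference of -0.12. Of 5 named B2M probes, the 4 above background on both arrays had differences of -0.10 to 0.06. The cDNA clone probe A_73_107826 read 44812 and 37566 (-0.02).

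The mitochondrial ribosomal RNA probes differed in signal with the accession series of their clones, which was seen only after the values. These RNAs (12S in the small and 16S in the large mitochondrial ribosomal subunit) are among the most abundant transcripts of any nucleated cell. Of 10 probes in the AB099 series, 9 read between 14202 and 44759 on the 2 arrays, and the other one, A_73_P100362, read 83 and 94. The 10 probes in the AB098 series read from 2 to 149, and 9 were above background on both arrays. One clone, ORCS10096, has a probe in each series, and they read 44759 and 44530 (A_73_P100216) against 11 and 19 (A_73_P099272). Both carry the same words in their description. The 10 AB099 probes had differences of -0.45 to -0.08 with a median of -0.31, and each lay below the median of all probes, -0.03. Probes for COX1, the mitochondrially encoded catalytic subunit of cytochrome c oxidase, lay on the other side. A_73_P097576 read 31018 and 24679 (0.05), A_73_103763 read 31626 and 22927 (0.19), and A_73_P099546 read 7183 and 5188 (0.19). Relative to the median of all probes, AB099 ribosomal probes thus read lower and COX1 probes higher in low feed efficiency.

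Very bright probes as a whole lay below 0, named ones too. In members of 10000 scanner units or more (geometric mean of the arrays) the median difference was -0.16 over 52 probes, and in named probes of that signal -0.13 over 388. At 20 to 50 units it was 0.04 over 955 members and 0.02 over 4284 named probes. The spread narrowed with signal, from an SD of 0.39 at 20 to 50 units to 0.28 at 100 to 1000 and 0.19 at 10000 and over. After a loess fit of the difference on signal, which removes that trend, the AB099 ribosomal probes had a median of -0.16 relative to all probes, and the COX1 probes one of 0.31.

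The comparison of low with high feed efficiency, the question named in the study's title through residual feed intake, showed few unnamed probes far apart. Among the 3627 members above background on both arrays, 20 had a 2-fold or larger excess in low feed efficiency and 20 an equally large deficit. The shares over all 22000 probes were 0.464% higher and 0.577% lower, or 1.04% in either direction. The members' 40 calls are 1.10% of the 3627, close to the share over all probes. Their median difference was -0.01 beside -0.03 over all probes, with 1783 members above and 1844 below 0, and 90% of members between -0.56 and 0.51. Most calls sat near the detection limit: 30 of the 40 had a signal under 25 on their dimmer array, as 27.5% of all detected members had. Only 7 of the 40 read 50 or more on both arrays, and 8 were flagged good by the scanner software on both. With normexp background correction, which adds an offset and so shrinks differences of dim spots, 4 of the 40 stayed past 2-fold in the same direction, 1 had no value there, and with pixel means without background correction 7 did. The 4 were A_73_115918, A_73_P064896, A_73_104931 and A_73_P160802. The pixels of 1 spot of A_73_104931 had a coefficient of variation of 184%, and those of 1 spot of A_73_P160802 had 146%. Scaling on the 8 spike-in control probes instead moved the median of all probes up by 0.36, so differences between -0.36 and 0 turn positive there, and 95.3% of the member calls were then higher against 50% here. Sides are therefore given relative to the median of all probes.

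The member with the largest positive difference among the members brighter than their median signal rested on an uneven spot. A_73_P160802 (TRAPPC14, listed as C7orf43) read 579 and 160 on the low- and high-efficiency arrays (1.58, and 6.35 with normexp correction, which started from pixel means). The pixels of its low efficiency spot had a coefficient of variation of 146%, with a pixel mean of 19078 beside that median, against 24% in the high efficiency spot. The named C25H7orf43 probe that shares its accession read 3 on both arrays. Uneven spots, with a pixel coefficient of variation over 50% on either array, were 12 of the 40 members called, or 30%, and 122 of the 3587 members within 2-fold, or 3.40%. The part of uneven spots in the calls was not tested beyond this count.

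Of the other 9 members in the set of the 10 largest positive differences, 5 had even spots on both arrays and 4 had a pixel variation of 54% to 74% in the high-efficiency spot. A_73_119496, which has no hit or description, read 294 and 106 (1.20) from spots flagged good on both arrays. A_73_114465 reports ANXA1 (annexin A1, a calcium-dependent phospholipid-binding protein of neutrophils and monocytes that restrains inflammation) and read 162 and 61 (1.13), with a pixel variation of 54% in the high-efficiency spot. With normexp correction its difference was 0.80, and that of A_73_119496 was 0.97. All 3 named ANXA1 probes read higher in low feed efficiency too, by 0.43, 0.47 and 0.81. A_73_111609, described as limkain-b1 (MARF1, a regulator of meiosis in oocytes), read 277 and 116 (0.98), its high-efficiency spot with 74% variation. Both named MARF1 probes, at signals of 20 or less, lay at 0.14 and -0.19. A_73_112638 falls on RIGI, formerly DDX58, a sensor of viral RNA in the cytoplasm, and read 176 and 78 (0.90), with 63% variation in the high-efficiency spot. The named DDX58 probe read 59 and 30 (0.70). A_73_105710, with no description, lay at 0.95 with 65% variation. The others were A_73_P269956 (0.92, described through a ubiquitin hydrolase of fruit fly), A_73_115463 (0.91, ubiquitin, the protein tag for degradation), the cDNA clone probe A_73_104413 (0.84) and A_73_111527 (0.83, described through a genome scaffold of Paramecium).

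Among members brighter than their median signal, A_73_P064896 had the largest negative difference. It is placed on a transcript of FAM222B, a gene of little-known function, and read 223 and 536 (-1.54) from spots flagged good on both arrays with pixel variation of 16% and 13%. A_73_117680, described through a protein of a choanoflagellate, read 79 and 159 (-1.28, and -0.84 with normexp correction), and A_73_115918, with no description, read 627 and 1099 (-1.08). Those 3 and an immunoglobulin probe were the brighter members at least 2-fold lower. A_73_113973 (SLC38A5, a transporter of neutral amino acids found on maturing red cells) read 577 and 931 (-0.97). Of 3 named SLC38A5 probes, 1 was above background on both arrays and read 16 on each. A_73_P402451 (CCDC17) read 750 and 1204 (-0.96). Another member on the same CCDC17 transcript, A_73_P093521, read 17 and 14 with a difference near 0. The remaining ones of the set of 10 were A_73_113396 (-0.99, with a pixel variation of 67% in low feed efficiency), the fat library tag A_73_109608 (-0.90, with 76%), the clone tag A_73_P133256 (-0.86) and the lambda chain probe A_73_P053496 (-0.84).

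Immunoglobulin chains, the products of B cells and plasma cells, read lower in low feed efficiency on every detected member. Of 17 unnamed probes described as a heavy or light chain, 10 were above background on both arrays. All 10 lay below the median of all probes, which 50% of all probes do by definition, and their median difference was -0.54. The constant region of the mu heavy chain (A_73_P107506, IgM, the first class a B cell makes) read 1228 and 1463 (-0.53). The epsilon chain (A_73_110645, IgE) read 485 and 613 (-0.61), and the membrane form of the delta chain (A_73_100025, IgD, carried by naive B cells) read 179 and 193 (-0.38). The probe for the constant region of IgG2a (A_73_109895) read 168 and 285, a difference of -1.04 and the only chain detected on both arrays that passed 2-fold, although its high efficiency spot had a pixel variation of 59% and its difference was -0.85 with normexp correction. Of the light chain variable regions, A_73_P100876 read 285 and 318 (-0.43), A_73_P053496 read 54 and 80 (-0.84), and A_73_P108416 read 77 and 93 (-0.55). The 7 probes not above background on both arrays all report heavy chain variable regions and read 16 or less. The 2 named probes found by the same words read lower as well, by 0.21 and 0.45 on the log2 scale. In bulk blood, fewer cells of a type and less RNA per cell cannot be told apart, and these probes share chains and clones, so they are not independent of each other. Named probes of CD79A, CD79B and MS4A1 read 2877, 223 and 378 in low against 2207, 218 and 303 in high feed efficiency. These B cell gene readings are before scaling, and the 75th percentiles of the arrays were 98 and 81. They are therefore not on the scale of the differences above. The part of these B cell genes in the result was not tested. A_73_117563, described as the omega chain of the surrogate light chain and not counted in the family, read 2794 and 2554 (-0.15). A_73_P068481, a leukocyte immunoglobulin-like receptor and no antibody chain, read 34 and 12 (1.23, and 0.18 with normexp correction).

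The unnamed T cell receptor probes gave a mixed picture at low signal. Of 25 probes for receptor chains, 14 were above background on both arrays, with a median difference of 0.09, and 9 lay above and 5 below the median of all probes. The delta chain, which pairs with gamma on the gamma-delta T cells that are plentiful in cattle blood, lay on 1 side. All 5 detected delta probes read higher in low feed efficiency, with a median of 0.21: A_73_P054801 read 137 and 87 (0.38), A_73_P079196 read 136 and 97 (0.21), and the other 3 read 80 or less with differences of 0.02 to 0.28. Differences above 0 were found in 46.7% of all probes. The delta probes A_73_P079196 and A_73_P079301 lie on 1 transcript, so the delta probes are not independent of each other. Over spots of one dim probe the SD of the difference was 0.23. The gamma chain probes went both ways: A_73_P108841 read 48 and 27 (0.56) and A_73_P102736 read 12 and 11 (-0.15). Of 4 detected beta chain probes 3 read lower, among them A_73_P101786 at 32 and 56 (-1.08, and -0.45 with normexp correction). The named probe that shares its accession read 67 and 65 (-0.23). Of 11 alpha chain probes only 3 were above background on both arrays, and none of them read over 27.

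Most core and linker histone probes lay on the lower side. Histone proteins package DNA, and the messenger RNAs of the core histones are made mainly while cells copy their DNA. Of 22 members described as a histone, 17 were above background on both arrays, and 15 of these lay below the median of all probes; the median difference was -0.51. The H4 probes A_73_P061176, A_73_P095846 and A_73_P062651 read 2527, 1971 and 1861 in low against 3217, 2683 and 2381 in high feed efficiency, with differences of -0.62, -0.72 and -0.63. A_73_P087551, also H4, read 939 and 1330 (-0.78), and A_73_P087133, an H2A probe, read 1799 and 2134 (-0.52). One pair of probes went opposite ways at the detection limit: the H2B probes A_73_P062676 at 19 and 41 (-1.38, with a pixel variation of 51%) and A_73_P062811 at 41 and 15 (1.18) carry the same description. With normexp correction they lay at -0.42 and 0.29. The histone probes with a gene name lay to the same side, with 29 of 38 detected ones below the median of all probes and a median of -0.33. The histone family was singled out after its values were seen, many histone genes are near-identical in sequence, and probes for them may report each other's RNA.

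Class II histocompatibility molecules present peptides on B cells and monocytes. Of their 3 detected unnamed probes, the DRB3 probe A_73_112936 had the lowest difference. It read 20126 and 27184 (-0.71) and the 2 named BOLA-DRB3 probes that share its accession lay at -0.40 and -0.58. The DQB probe A_73_101349 read 7675 and 6170 (0.04) and the DQA1 probe A_73_P062201 read 2156 and 1974 (-0.15). Of 30 named class II probes above background on both arrays, 29 lay below and 1 above the median of all probes. The median difference of these 30 named probes was -0.37, so a lower reading was not particular to DRB3. It did not hold for every named class II probe. The 1 above the median had a difference of 4.92. Another 3 passed the background cut on the low-efficiency array alone, each with a lower bound on the fold of 2 or more. The reverse was seen for 1 named probe, with a bound under 2-fold. The interferon gamma receptor chain IFNGR2, which carries the signal of interferon gamma into the cell, was read by 3 unnamed probes: A_73_P450721 at 5240 and 3625 (0.26), A_73_P355846 at 1026 and 709 (0.26) and A_73_107789 at 472 and 347 (0.17). The named IFNGR2 probe gave 514 and 362, a difference of 0.23. Of the unnamed probes for the secreted interferons alpha, omega and tau, all 4 were at background, as were 10 of 11 named ones. In the class of descriptions with interferon, A_73_101791 (a binding protein of interferon regulatory factor 2) lay farthest from 0, at 1615 and 2259 (-0.76). The ribosomal protein members showed no common side: 12 of 18 were above background on both arrays, 7 lay below and 5 above the median of all probes, and the brightest, A_73_120986 (RPL12), read 26659 and 23399 (-0.09).

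Members described as olfactory receptors or globin were almost silent in blood. Of 125 usable members described as olfactory receptors, odour sensors of the nasal lining, 8.80% were above background on each array and 7 of them on both, with a median signal of 3 scanner units over the whole class. Of 228 named olfactory receptor probes, 11.8% and 10.1% were. The brightest unnamed one was A_73_P054331 (OR9S32) at 165 and 127. The single globin member, A_73_P489983, read 3 and 4 and was flagged not found on both arrays, while the named HBB probe A_73_120596 read 6549 and 4517. The current gene of the globin member is the locus LOC787671. Zinc finger proteins, a large family of DNA-binding regulators, were above background in 33.9% and 30.6% of 186 members. The small nuclear RNA U1a, which marks splice sites, was read by A_73_P108131 at 4908 and 4139 (-0.03).

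The remaining probes at the ends of their classes were mostly dim, and the 4 of them past 2-fold did not stay so with normexp correction. The member farthest from 0 of all was A_73_106381, a fat library tag, at 15 and 39 (-1.65, and -0.54 with normexp correction), with a pixel variation of 52% in low feed efficiency. A_73_107767, described as PHF21A, a protein that reads histone marks, read 40 and 11 (1.59, and 0.25 with normexp correction), and 2 detected named PHF21A probes gave 0.44 and 0.48. A_73_104196, with no description, read 12 and 24 (-1.27, and -0.20 with normexp correction), and the zinc finger probe A_73_P130141 read 18 and 31 (-1.06, and -0.43). A_73_101703, for the mitochondrial ribosomal protein L3, read 44 and 22 (0.73), and A_73_P087471, for RPL9, read 93 and 51 (0.59). The brightest zinc finger member, A_73_115655, read 1434 and 1168 (0.02). A_73_115907, the brightest member described through genome sequence, here a pufferfish scaffold, read 2264 and 1923 (-0.04). A_73_103966, for a subunit of the complex that activates small nuclear RNA genes, read 363 and 259 (0.21). The olfactory receptor farthest from 0, A_73_P053341, read 44 and 46 (-0.34).

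Members above background on 1 array only were mostly weak. There were 494 such members for low and 170 for high feed efficiency among the 9029, beside 2329 and 718 among all 43096 probes. Detection used the same cut of 10.9 on both arrays, before division by their 75th percentiles, 98 and 81. A lower bound on the fold divides the bright scaled signal by the dim array's detection floor, or by the dim spot where that is brighter. The bound reached 2-fold in 6 of the 494 and 24 of the 170 members. Over all probes above background on 1 array only it did so in 1.89% and 11.8%. The largest bounds were in high feed efficiency: A_73_P104501, a cDNA clone, read -1 and 1995, at least 219-fold higher. A_73_P182547, a clone tag, read 3 and 1341 (at least 147-fold), and A_73_P486158, without a hit, read 2 and 358 (at least 39.4-fold). The high efficiency spots of these 3 had pixel variations of 105%, 115% and 143%. Next came A_73_P129471 at 0 and 102 and A_73_P122176 at 7 and 101, both 3′ tags, at least 11.2-fold and 11.1-fold, with pixel variations of 300% and 174%. Among the 24, the bright spot was uneven in 9, or 37.5%, against 4.79% of the 146 with a smaller bound. The dim spot was flagged not found in 13 of the 24. In low feed efficiency the largest bounds belonged to A_73_P056636 and A_73_P490883, both described as olfactory receptors, at 116 and -1 (at least 8.72-fold) and 58 and 4 (at least 4.36-fold). A_73_120764, described as the neurotrophin receptor NTRK3, followed at 53 and 3 (at least 3.98-fold), then A_73_P114511 (STARD9) at 31 and 9 and A_73_P490413 at 30 and 6, at least 2.33-fold and 2.25-fold. The low-efficiency spots of A_73_P490883 and A_73_120764 had pixel variations of 132% and 83%.

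Several members often sat on 1 transcript and gave a view of how far probes of one target differ. There were 600 targets with 2 or more unnamed probes, 1371 probes in all. In 147 targets every probe was above background on both arrays, in 279 none was, and in 174 only some were. In the 181 targets with 2 or more detected probes the pooled SD of the difference within a target was 0.26, larger than over spots of one probe. A single target had all its detected probes past 2-fold: FAM133B, with A_73_113165 at 50 and 20 (1.05) and A_73_P077306 at 44 and 17 (1.10), both dim. With normexp correction they lay at 0.28 and 0.27, and with pixel means at 0.44 and 0.46, so neither passed 2-fold there. The widest gap was 1.44, in ITSN2 (intersectin 2, an adaptor of endocytosis), where A_73_P162852 read 43 and 12 (1.57, and 0.37 with normexp correction) and A_73_P082851 read 53 and 40 (0.13). A_73_108288, described as NRAS, a small GTPase of growth signalling, read 41 and 14 (1.28, and 0.19 with normexp correction), beside 4 named NRAS probes detected on both arrays with differences of -0.01 to 0.29. The other detected probes for ITSN2 and NRAS thus stayed under 2-fold, as did the 3 named ANXA1 probes.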

How the data were processed

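Total RNA was labelled with Cy3 and hybridised to 1 single-colour array per group. Per the file headers, GenePix Pro 6.1.0.4 wrote the spot intensities without normalization, after a background from negative control spots. The submitters' notes on processing name a different tool, Agilent Feature Extraction. The deposited files also hold each spot's percent of saturated pixels, the variation of its pixels (SD as a percent of the mean) and a flag score (100 for good, 0 for none, -50 for not found). The background-subtracted pixel median was used as planned. Bright spots with the flag for not found (408 on the low- and 283 on the high-efficiency array) were left out on both arrays. Spots of one probe were averaged and intensities divided by each array's 75th percentile over probes, then taken to log2. A call is a 2-fold difference among probes above background on both arrays. The calling code was run on simulated data with planted changes above the 2-fold threshold and without uneven spots. That run checked the code only and does not measure the error of dim or uneven calls. Python 3.11.15, pandas 2.3.3 and limma 3.58.1 in R 4.3.3 were used. The members and lists were chosen with earlier results of these data known, and families were chosen after the descriptions and values were seen. The authors' deposited log2 value table (median 4.34 in each column) followed the scanner ranks only after a move by 1 row, with a Spearman's rho of 0.077 and 0.072 before it, and served as an alternative. How that table was normalized is not stated in the sources used here.

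Probes named in the text are the 10 brightest members, the 10 largest differences in each direction among members brighter than their median signal and not saturated on both arrays, the 5 largest bounds per direction, and in each class of descriptions the brightest member and the one farthest from 0. Others were named after their values were seen. Alternatives covered background correction, scaling, detection, spot flags, saturation, the fold threshold and, added after seeing the data, uneven spots.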

Additional observations from a re-analysis of the deposited data

Results flagged for a closer look

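Spots that the scanner software flagged as not found, although their signal was above background, entered no comparison. Among the probes without a gene name such spots numbered 84 (low feed efficiency) and 51 (high), on 107 probes, where the highest negative control read 9 and 32. Of the 107, 97 read under 50 on both arrays. The brightest was A_73_112543, a cattle messenger RNA entry described by its alternative polyadenylation signals, at 8312 in low (flagged good) and 4400 in high feed efficiency (not found). A_73_P162032 followed at 392 and 480 and A_73_P408411 at 272 and 240, with the low efficiency spot flagged in both.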

How the results depend on the processing

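With 1 array per group, no replicate could be left out and no result has a test. No paired analysis was possible because each group has 1 array, so the groups share only 1 replicate number. The 3627 members above background on both arrays became 1941 with a signal of at least 50 required on both. The 2-fold calls, 20 higher and 20 lower, became 101 and 5 with spike-in scaling, 39 and 50 with detection at the 95th percentile of the negative controls, 3 and 4 at a signal of 50 or more, and 2 and 6 with spots flagged good only. They became 131 and 156 at 1.5-fold, and 0 and 0 at 4-fold. Normexp background correction gave 5 and 15, detection at 5 robust SDs 6 and 15, and leaving out uneven spots, a choice made after seeing the data, 15 and 13. The median member difference of -0.01 became 0.36 with spike-in scaling. Probe A_73_P099272 turned from -1.06 to 0.020 with pixel means. Probe A_73_P160802 went from 1.58 to 6.55 with pixel means and 6.35 with normexp. The cause was not tested in any of these. Relative to the median of all probes, 8 of 10 families kept one sign in the 14 alternatives that give a difference. The exceptions were the unnamed class II histocompatibility and ribosomal protein probes. Scaling on the spike-in controls or on the median moves all probes alike, so it could not change a sign here. The delta chains count both alone and within the T cell receptor chains, and families were chosen after their values were seen. The immunoglobulin chains ranged from -0.55 to -0.30, the histones from -0.49 to -0.28 and the delta chains from 0.15 to 0.27. Near the detection limit a difference of a few scanner units makes a call, and spots of one array say nothing of the spread between animals.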
